A study of Mus musculus with 12 samples.

Results

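Solute carriers are the membrane transporters whose gene symbols begin with Slc, and 160 of them were measured here in P10 mouse retina across 4 *Crx* genotypes. Of 337 symbols of this form on the array, 9 were set aside by the rule (*Slc17a7*, *Slc17a6*, *Slc24a1*, *Slc27a2*, *Slc32a1*, *Slc6a9*, *Slc1a3*, *Slc2a1* and *Slc16a1*). Of the other 328, 160 had a probe above background (detection p-value under 0.05) on all 3 arrays of at least 1 genotype, and the rest were not measured by this rule. By the same rule 9518 genes of the array were measured. Each gene was read by its brightest probe. A gene that met the rule in few genotypes could enter through the groups in which it was high. In 1 genotype only, 10 of the 160 met it. *Slc14a1*, *Slc39a4* and *Slc52a3* entered through WT, *Slc25a32*, *Slc39a8* and *Slc4a1* through E168d2neo/d2neo, and *Slc25a29* through R90Wneo/Wneo. *Slc10a4*, *Slc30a6* and *Slc7a7* entered through Crx-/-. *Slc4a1* was not high in the group it entered through, with a mean log2 signal of 5.15 there and 5.81 in WT. Another 11 met the rule in 2 genotypes, 10 in 3 genotypes and 129 on all 12 arrays. The symbol also took in 4 genes that are named after a carrier and are no transporters themselves, and *Slc10a4l*, annotated as a transcribed pseudogene, and the counts of carriers include them.

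Retinal neurons and glia move most of their small molecules through solute carriers. Members of the plasma membrane families bring in amino acids, sugars, nucleosides, vitamins and metal ions or exchange protons, bicarbonate and calcium, and the SLC25 family connects the mitochondrial matrix with the cytosol. Photoreceptors are among the most energy-demanding cells of the body and are supplied with lactate, glutamine and taurine through carriers of their own membranes and of the neighbouring Mueller glia and pigment epithelium.

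The arrays compared WT retina with 3 homozygous *Crx* genotypes on a C57bl6/J background, all at P10. CRX is the homeodomain transcription factor of rods and cones. E168d2neo/d2neo mice carry a deletion of 2 bases that shifts the reading frame and truncates the activation domain of CRX. R90Wneo/Wneo mice carry an amino acid exchange in its homeodomain. In both lines a *neo* cassette was left in an intron of *Crx*. By the study's account it lowers expression of the mutant allele relative to the line without the cassette. In the study's quantitative PCR, total *Crx* mRNA stayed above WT in E168d2neo/d2neo and lay below WT in R90Wneo/Wneo. Crx-/- mice lack the protein. For each array the retinas of 1 male and 1 female mouse were pooled, with 3 arrays per genotype, so that n counts pools. In whole retina, fewer cells of a type and less RNA per cell cannot be told apart.

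Signals are given as log2 of the background-subtracted, quantile-normalized intensity, with a floor of 4 (16 on the linear scale). Calls needed a 2-fold change and an adjusted p no higher than 0.05 (limma, Benjamini-Hochberg adjustment over all 24311 tested probes). The 3 WT arrays served every comparison with WT. With 3 arrays against 3, an exact permutation test of a single gene cannot give a two-sided p under 0.1. Mean raw signal per array lay between 176 and 394, WT replicate 1 and E168d2neo/d2neo replicate 1 being the dimmest, and 145 to 157 of the 160 genes were detected on each array. The *Crx* probe was detected on all 12 arrays, with log2 signals between 12.83 and 13.04 in Crx-/- and between 13.44 and 13.65 in WT. It read 13.66, 14.05 and 14 in E168d2neo/d2neo (difference from WT 0.39, adjusted p = 0.16) and 13.57, 13.43 and 13.43 in R90Wneo/Wneo. Its place relative to the deleted part of the gene is not given in the sources used here, so it does not check the Crx-/- label.

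Several marker lists set single arrays apart. The summed signal of 7 rod markers lay at log2 16.71 to 16.82 in WT, 14.55 to 15.02 in E168d2neo/d2neo and 14.99 to 15.15 in Crx-/-, and at 15.34, 15.69 and 16.39 on R90Wneo/Wneo replicates 1, 2 and 3, so that R90Wneo/Wneo replicate 3 lay nearest to WT. The lens marker sum was 16.91 on E168d2neo/d2neo replicate 1, 15.51 and 13.02 on Crx-/- replicates 1 and 3 and 14.50 on R90Wneo/Wneo replicate 3, against 7.47 to 10.49 on the other arrays. The erythrocyte marker sum was highest on WT replicate 1 (15.04) and Crx-/- replicate 2 (14.87), and the pigment epithelium sum was lowest on R90Wneo/Wneo replicates 2 (10.11) and 1 (11.28). None of the tested markers of Mueller glia, bipolar, amacrine or horizontal cells, ganglion cells, microglia or vessels was called in any mutant. The summed vessel markers nevertheless lay below WT (11.50 to 11.63) in every mutant, at 10.90 to 11.16 in E168d2neo/d2neo, 11.14 to 11.42 in R90Wneo/Wneo and 10.83 to 11.24 in Crx-/-. In E168d2neo/d2neo the vessel marker *Pecam1* (-0.85, adjusted p = 0.0172) and the bipolar cell marker *Pcp2* (-0.89, adjusted p = 0.0356) passed the adjusted p below 2-fold. Of the 7 rod markers E168d2neo/d2neo had 4 called lower, Crx-/- had 3 and R90Wneo/Wneo had 0, and of 6 tested cone markers 5 were lower in each of the first 2 and 4 in R90Wneo/Wneo, while the cone transducin gene *Gngt2* was called higher in all 3 (2.09, 1.82 and 1.79 on the log2 scale for E168d2neo/d2neo, R90Wneo/Wneo and Crx-/-). What part the rod, cone, vessel, lens and other markers have in the values of the carriers was not tested.

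Of the 160 carriers, 16 were called in at least 1 comparison and 144 in none. Against WT, E168d2neo/d2neo had 6 carriers lower and 0 higher, R90Wneo/Wneo had 0 of either kind and Crx-/- had 13 lower and 1 higher. Of all tested probes, E168d2neo/d2neo had 2.24% lower and 1.55% higher, R90Wneo/Wneo 0.650% and 0.329%, and Crx-/- 2.34% and 1.55%. Among the 16529 probes that meet the detection rule of the carriers, the shares lower were 3.20%, 0.907% and 3.32% and the shares higher 2.19%, 0.484% and 2.24%, in the same order. The carriers called lower were 3.75% of the 160 for E168d2neo/d2neo, near the 3.20% of such probes, and 8.12% for Crx-/-, above the 3.32%. Of the 13 lower in Crx-/-, *Slc25a45* and *Slc46a1* were undetected on every Crx-/- array, and their falls are bounded only at less than 2-fold. Whatever the fold, an adjusted p of 0.05 or less was reached by 8 carriers lower and 2 higher in E168d2neo/d2neo (3.68% and 2.88% of tested probes), by 0 and 0 in R90Wneo/Wneo (0.847% and 0.494%) and by 18 and 3 in Crx-/- (3.87% and 3.14%). The shares at any fold are of all tested probes and not of the 16529. With the arrays scaled to 1 mean in place of quantile normalization the counts were 4 lower and 1 higher in E168d2neo/d2neo, 0 and 1 in R90Wneo/Wneo and 11 and 1 in Crx-/-. The Crx-/- count of carriers called lower moved with single arrays: it was 7, 3 and 6 without WT replicate 1, 2 or 3, and 3 and 6 without Crx-/- replicate 1 or 2. It fell less far without Crx-/- replicate 3. There *Slc25a45*, *Slc38a3*, *Slc39a4*, *Slc46a1* and *Slc8a3* lost their calls and *Slc1a7* gained a call. Without E168d2neo/d2neo replicate 1, a dim array and the one with the highest lens sum, the E168d2neo/d2neo counts were 9 lower and 1 higher. *Slc26a6*, *Slc46a3*, *Slc5a5* and *Slc8a3* were then called lower and *Slc10a4* higher, and *Slc31a2* was not called. The shares of all probes called with the other scaling or without these arrays are not given here. Of the 16 called genes, 8 were detected on all 12 arrays.

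**Figure D1:**
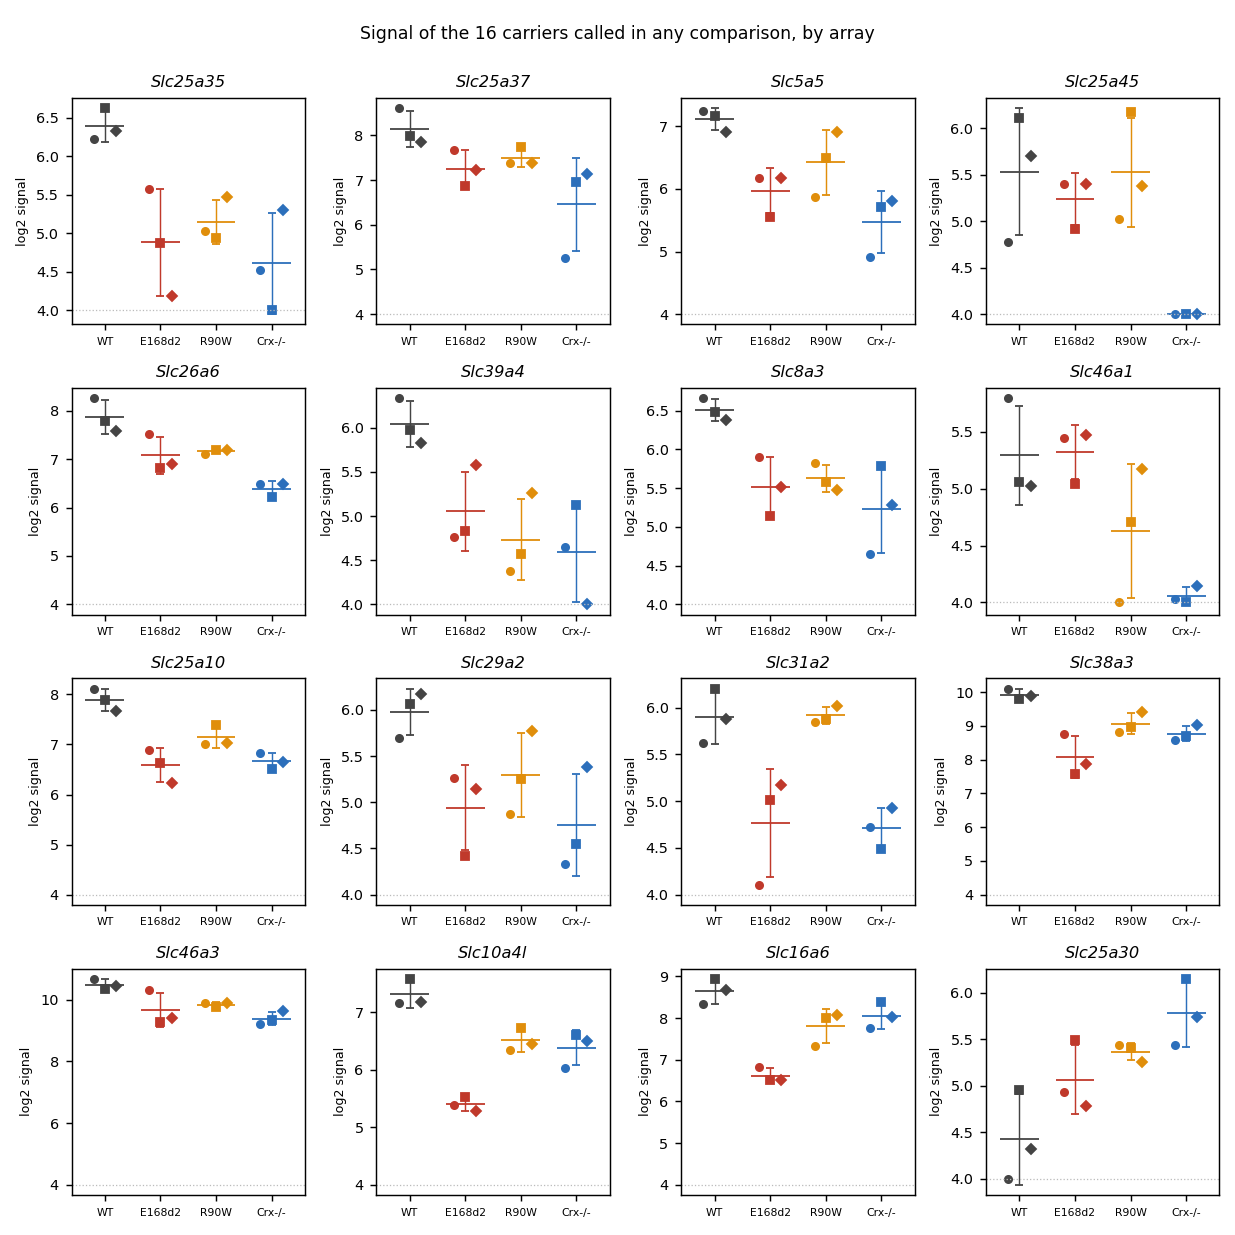
Log2 signal (y axis) of the 16 solute carriers called in any comparison, by genotype (x axis, with E168d2neo/d2neo and R90Wneo/Wneo shortened to E168d2 and R90W). Circles, squares and diamonds are replicates 1, 2 and 3, the horizontal line is the mean, bars are the SD of 3 arrays, and the dotted line is the floor of 4. The R90Wneo/Wneo arrays of *Slc31a2* lie among those of WT, while its E168d2neo/d2neo and Crx-/- arrays lie below them.

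The mitochondrial carriers of the SLC25 family were the largest group, with 31 genes, of which E168d2neo/d2neo had 2 called lower and Crx-/- had 4 called lower and 1 higher. Of the probes that meet the same detection rule, 3.20% were lower in the former and 3.32% and 2.24% lower and higher in the latter, and the counts of the other groups stand beside the same shares. *Slc25a10* encodes the dicarboxylate carrier, which exchanges malate and succinate for phosphate across the inner membrane. Its log2 signals were 8.12, 7.89 and 7.68 in WT, 6.89, 6.63 and 6.22 in E168d2neo/d2neo, 7.01, 7.40 and 7.03 in R90Wneo/Wneo and 6.83, 6.51 and 6.65 in Crx-/-. Every mutant array lay below every WT array. *Slc25a10* was 2.48-fold lower in E168d2neo/d2neo (log2 difference -1.31, SE 0.21, adjusted p = 0.00302) and in Crx-/- 2.35-fold (-1.23, SE 0.21, adjusted p = 0.00479), calls kept in each of the 12 fits that left out 1 array. In a fit on only the 2 genotypes compared the E168d2neo/d2neo call was lost (adjusted p = 0.052). In R90Wneo/Wneo the difference was -0.75 (95% interval -1.20 to -0.30, adjusted p = 0.132).

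*Slc25a35* encodes a mitochondrial carrier with no settled substrate. The 3 WT arrays read 6.23, 6.63 and 6.32 for *Slc25a35* on the log2 scale, those of E168d2neo/d2neo 5.58, 4.88 and 4.19, those of R90Wneo/Wneo 5.03, 4.94 and 5.47 and those of Crx-/- 4.52, 4 and 5.31. All mutant arrays were below all WT arrays, and the probe was above background on 2 of 3 E168d2neo/d2neo and 1 of 3 Crx-/- arrays. The differences of -1.51 (E168d2neo/d2neo, SE 0.37, adjusted p = 0.036) and -1.78 (Crx-/-, adjusted p = 0.0157) passed, and the difference of -1.25 in R90Wneo/Wneo did not (adjusted p = 0.178). The call in E168d2neo/d2neo was lost without any 1 array of WT or R90Wneo/Wneo, without E168d2neo/d2neo replicate 2 or 3 or without Crx-/- replicate 1 (adjusted p up to 0.118). In Crx-/- it was lost without WT replicate 2 or Crx-/- replicate 1 or 2 (adjusted p up to 0.0698). The E168d2neo/d2neo call was also lost with the replicate number as a block (adjusted p = 0.0622), with the arrays scaled to 1 mean (0.0587), in the fit on only the genotypes compared (0.122) and with no filter on dim probes (0.109), and the Crx-/- call was lost with no filter (0.0589). A floor of 32 in place of 16 brought a call in R90Wneo/Wneo (-1.23, adjusted p = 0.0194). Restricted to probes detected on all 12 arrays, the test left *Slc25a35* out.

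*Slc25a37* encodes mitoferrin 1, the mitochondrial iron importer of developing red cells. Log2 signals of *Slc25a37* were 8.61, 7.98 and 7.86 on the WT arrays, 7.67, 6.86 and 7.23 on those of E168d2neo/d2neo, 7.38, 7.74 and 7.38 on those of R90Wneo/Wneo and 5.26, 6.97 and 7.15 on those of Crx-/-. Crx-/- replicate 1 lay far below the other arrays, and WT replicate 1, which had the highest erythrocyte marker sum, was the brightest. That sum was 15.04, 14.01 and 13.80 on the WT arrays and 13.36, 14.87 and 13.67 on those of Crx-/-. Crx-/- replicate 2 thus had a high sum, while its *Slc25a37* signal was 6.97. The part of the erythrocyte sum in these values was not tested. *Slc25a37* was 3.23-fold lower in Crx-/- (-1.69, SE 0.43, adjusted p = 0.0402), and -0.90 and -0.65 in the other mutants (adjusted p = 0.263 and 0.643). The call was lost in 10 of the 12 fits that left out 1 array, all but those without E168d2neo/d2neo replicate 1 or Crx-/- replicate 3 (adjusted p up to 0.122), and the difference was -1.09 at its smallest. It was also lost with the replicate block (adjusted p = 0.0714), with a floor of 32 (0.0656), with no filter on dim probes (0.128) and with only the genotypes compared (0.154).

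*Slc25a45*, another member of the mitochondrial family, had log2 signals of 4.78, 6.11 and 5.71 in WT, 5.40, 4.91 and 5.40 in E168d2neo/d2neo and 5.03, 6.17 and 5.38 in R90Wneo/Wneo. On all 3 Crx-/- arrays it was undetected and at the floor. Set against the lowest detected signal of those arrays the fall was at least 1.74-fold. The call rests on the fitted difference of -1.53, taken against values at the floor (adjusted p = 0.0236). The 2 other mutants overlapped WT (adjusted p = 0.677 and 1). Leaving out WT replicate 2 or 3 or any 1 Crx-/- array ended the call (adjusted p up to 0.085). A floor of 32 (adjusted p = 0.37), no filter on dim probes (0.0771) and only the genotypes compared (0.0678) ended it as well.

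*Slc25a30* was the carrier called higher. It encodes kidney mitochondrial carrier protein 1. In WT the log2 signal of *Slc25a30* was 4, 4.96 and 4.32 on replicates 1, 2 and 3, in E168d2neo/d2neo 4.93, 5.49 and 4.78, in R90Wneo/Wneo 5.44, 5.41 and 5.26 and in Crx-/- 5.44, 6.15 and 5.74, and it was detected on 1 of 3 WT arrays. All Crx-/- and R90Wneo/Wneo arrays lay above WT, and those of E168d2neo/d2neo overlapped it. The fitted rise in Crx-/- passed (1.35, SE 0.27, adjusted p = 0.0135), with 0.94 in R90Wneo/Wneo and 0.64 in E168d2neo/d2neo (adjusted p = 0.165 and 0.201). *Slc25a30* met the detection rule through R90Wneo/Wneo and Crx-/-, the groups in which it is highest. Its pass therefore gives no independent support for a rise. Without WT replicate 3 or Crx-/- replicate 2 the call was lost (adjusted p up to 0.061). It was also lost with a floor of 32, where the difference was 0.78, and with only the genotypes compared (adjusted p = 0.0682), and *Slc25a30* was not among the probes detected on all 12 arrays. Over the 31 mitochondrial carriers the median log2 difference was -0.18, -0.12 and -0.18 for E168d2neo/d2neo, R90Wneo/Wneo and Crx-/-, against 0.01 for all tested probes in each. With the arrays scaled to 1 mean it was -0.03, -0.02 and -0.15, against 0.10, 0.06 and 0.06 for all tested probes. All tested probes include dim ones that fail the detection rule of the carriers, so these medians are not set against a like background. *Slc25a33*, a mitochondrial carrier of pyrimidine nucleotides named after its values were seen, passed the adjusted p below 2-fold in E168d2neo/d2neo (-0.70, adjusted p = 0.0353) and Crx-/- (-0.64, adjusted p = 0.0492). *Slc25a25*, also named after its values were seen, differed by -1.24 in E168d2neo/d2neo and -1.05 in Crx-/- without passing (adjusted p = 0.112 and 0.168). Without E168d2neo/d2neo replicate 1 it was called in Crx-/- (-1.05, adjusted p = 0.0153).

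Of the 21 amino acid carriers, 1 was called. *Slc38a3* encodes SNAT3, which moves glutamine together with sodium in exchange for protons and serves glutamine release from glia. For *Slc38a3*, the log2 signals were 10.10, 9.79 and 9.88 in WT, 8.77, 7.59 and 7.88 in E168d2neo/d2neo, 8.83, 8.97 and 9.41 in R90Wneo/Wneo and 8.59, 8.70 and 9.02 in Crx-/-, with every mutant array below every WT array. It was 3.6-fold lower in E168d2neo/d2neo (-1.85, SE 0.28, adjusted p = 0.00258), and this call was kept in each fit that left out 1 array and lost in the fit on only the genotypes compared (adjusted p = 0.0616). It was 2.23-fold lower in Crx-/- (adjusted p = 0.0323), a call lost without any 1 array of WT or Crx-/- (adjusted p up to 0.116) and with no filter on dim probes (0.0877). In R90Wneo/Wneo the difference was -0.86 (95% interval -1.48 to -0.24, adjusted p = 0.235).

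Some amino acid carriers passed the adjusted p but changed by less than 2-fold, and they are named after their values were seen. *Slc1a7* encodes EAAT5, the glutamate transporter of photoreceptor and bipolar cell terminals, and it differed by -0.89 in Crx-/- on the log2 scale (SE 0.20, adjusted p = 0.0214; past 2-fold, at -1.01, without Crx-/- replicate 3). *Slc38a9*, an arginine sensor of the lysosome, differed by -0.74 in E168d2neo/d2neo and -0.72 in Crx-/- (adjusted p = 0.0257 and 0.0273). *Slc38a2*, a neutral amino acid carrier induced when amino acids are scarce, went the other way: its log2 signals were 10.02, 10.48 and 10.43 in WT, 10.93, 11.17 and 10.91 in E168d2neo/d2neo, 11.13, 10.83 and 11.18 in R90Wneo/Wneo and 11.13, 11.07 and 11.29 in Crx-/-. All 9 mutant arrays lay above all WT arrays, by 0.69, 0.74 and 0.85 on average (adjusted p = 0.0372, 0.0729 and 0.0133).

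The 7 monocarboxylate, dicarboxylate and fatty acid carriers held the largest fall of all 160. *Slc16a6* encodes MCT7, which exports ketone bodies from the liver in zebrafish. Its log2 signals were 8.34, 8.93 and 8.66 in WT, 6.83, 6.50 and 6.52 in E168d2neo/d2neo, 7.33, 7.99 and 8.08 in R90Wneo/Wneo and 7.76, 8.38 and 8.02 in Crx-/-. The E168d2neo/d2neo arrays lay below all others, and 1 Crx-/- array overlapped WT. *Slc16a6* was 4.07-fold lower in E168d2neo/d2neo than in WT (-2.03, SE 0.25, adjusted p = 0.000597), and the call was kept in each fit that left out 1 array. The differences in R90Wneo/Wneo and Crx-/- were -0.84 and -0.59 (adjusted p = 0.167 and 0.19). A second probe of *Slc16a6* gave -2.87, -1.09 and -1.37 for E168d2neo/d2neo, R90Wneo/Wneo and Crx-/- (adjusted p = 0.000403, 0.184 and 0.0308), so that the probes disagree on the call in Crx-/-.

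*Slc16a8*, named after its values were seen, encodes MCT3, the lactate carrier of the pigment epithelium. The 3 WT arrays read 8.67, 8.48 and 8.19 for *Slc16a8* on the log2 scale, those of E168d2neo/d2neo 7.76, 7.54 and 8.27, those of R90Wneo/Wneo 6.99, 6.68 and 7.71 and those of Crx-/- 7.72, 8.29 and 8.17. The R90Wneo/Wneo arrays lay below those of WT, with a difference of -1.32 (SE 0.29) that missed the threshold (adjusted p = 0.0523). Without R90Wneo/Wneo replicate 3 it was called (-1.62, adjusted p = 0.0275), as it was among the probes detected on all 12 arrays (adjusted p = 0.0184). The pigment epithelium marker sum was log2 11.28, 10.11 and 11.83 on these arrays against 12.92, 11.88 and 11.82 in WT, and the median of its 5 tested markers differed by -1.11. *Slc45a2*, which serves the melanosomes of pigment cells, differed by -1.18 on the same arrays (adjusted p = 0.316). What part the amount of pigment epithelium has in these values was not tested.

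Among the 21 metal ion carriers 1 was called lower in E168d2neo/d2neo and 2 in Crx-/-. *Slc31a2* encodes CTR2, a copper carrier of intracellular membranes. Log2 signals of *Slc31a2* were 5.63, 6.20 and 5.88 on the WT arrays, 4.11, 5.01 and 5.17 on those of E168d2neo/d2neo, 5.85, 5.88 and 6.02 on those of R90Wneo/Wneo and 4.72, 4.49 and 4.92 on those of Crx-/-. The E168d2neo/d2neo and Crx-/- arrays lay below WT, and those of R90Wneo/Wneo lay within its range. *Slc31a2* was 2.2-fold lower in the former (-1.14, SE 0.27, adjusted p = 0.028) and 2.28-fold in the latter (-1.19, adjusted p = 0.0215). In R90Wneo/Wneo it differed by 0.01 (95% interval -0.57 to 0.60). Set directly against Crx-/-, R90Wneo/Wneo was 1.21 higher, which did not pass (adjusted p = 0.0913), but was called with the arrays scaled to 1 mean (1.11, adjusted p = 0.0453) and without E168d2neo/d2neo replicate 1 (1.22, adjusted p = 0.0194). The call in E168d2neo/d2neo was lost without WT replicate 2 or 3 or E168d2neo/d2neo replicate 1 (adjusted p up to 0.0986), and the call in Crx-/- without WT replicate 2 or 3 or Crx-/- replicate 1 or 2 (up to 0.0863). The E168d2neo/d2neo call was also lost by SAM, the permutation-based method named in the study's methods (adjusted p = 0.0792), with only the genotypes compared (0.169) and with no filter on dim probes (0.0742), and it fell under 2-fold with the arrays scaled to 1 mean (-0.96) and with a floor of 32 (-0.84). The Crx-/- call was lost with no filter (0.0604) and a floor of 32 (-0.90), and *Slc31a2* was not among the probes detected on all 12 arrays.

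*Slc39a4* encodes ZIP4, the zinc importer of the gut. In WT the log2 signal of *Slc39a4* was 6.33, 5.97 and 5.82 on replicates 1, 2 and 3, in E168d2neo/d2neo 4.76, 4.83 and 5.57, in R90Wneo/Wneo 4.38, 4.57 and 5.26 and in Crx-/- 4.65, 5.12 and 4. It was detected on all WT arrays, 2 of 3 E168d2neo/d2neo arrays and 1 of 3 arrays of each other mutant, and no mutant array reached WT. The difference passed in Crx-/- (-1.45, SE 0.33, adjusted p = 0.0242), and those of -1.31 in R90Wneo/Wneo and -0.99 in E168d2neo/d2neo missed the threshold (adjusted p = 0.096 and 0.11). It met the detection rule through WT alone, the group in which it is high. Leaving out any 1 WT array or Crx-/- replicate 1 or 3 ended the call (adjusted p up to 0.082), as did no filter on dim probes (0.0769) and only the genotypes compared (0.0617). *Slc41a3*, a magnesium carrier named after its values were seen, was higher by 0.87 in Crx-/- below 2-fold (adjusted p = 0.0352), and by 0.92 and 0.05 in R90Wneo/Wneo and E168d2neo/d2neo without passing (adjusted p = 0.0727 and 0.943). With the arrays scaled to 1 mean, *Slc41a3* was called in R90Wneo/Wneo (1.05, adjusted p = 0.0458), and without Crx-/- replicate 1 it was called in Crx-/- (1.00, adjusted p = 0.0429).

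**Figure D2:**
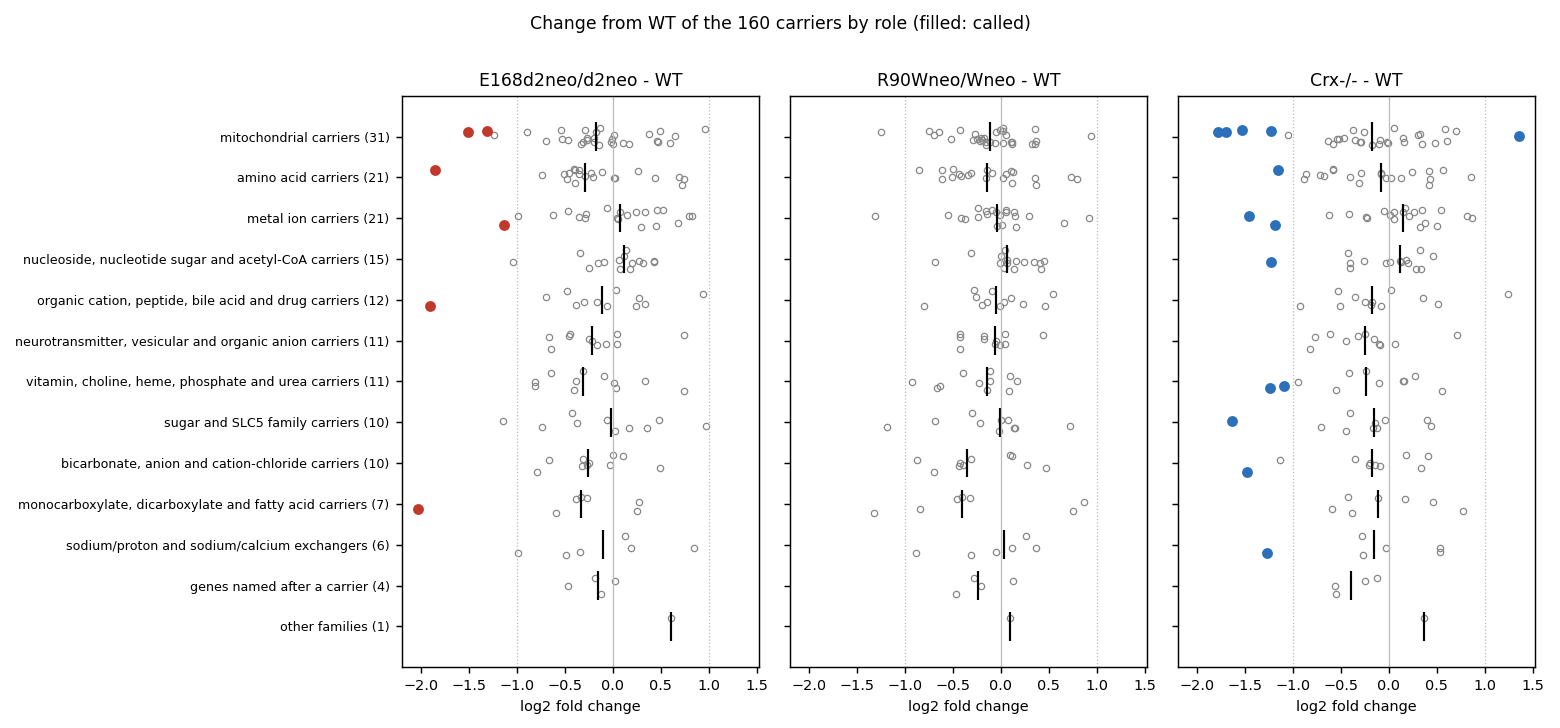
Log2 fold change from WT (x axis) of each of the 160 carriers in E168d2neo/d2neo, R90Wneo/Wneo and Crx-/-, grouped by role (y axis, with the number of genes). Open circles were not called, filled circles were called, black bars are group medians and dotted lines mark 2-fold. The R90Wneo/Wneo panel holds no filled circle, and 13 of the 14 filled circles in the Crx-/- panel lie left of the dotted line at -1.

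The other ion carriers gave 2 calls, both in Crx-/-. *Slc26a6*, 1 of 10 bicarbonate, anion and cation-chloride carriers, exchanges chloride for bicarbonate, oxalate and other anions. For *Slc26a6*, the log2 signals were 8.26, 7.79 and 7.57 in WT, 7.52, 6.83 and 6.90 in E168d2neo/d2neo, 7.12, 7.20 and 7.20 in R90Wneo/Wneo and 6.48, 6.21 and 6.48 in Crx-/-. The Crx-/- arrays lay below all others and the other mutants lay between them and WT. It was 2.79-fold lower in Crx-/- (-1.48, SE 0.22, adjusted p = 0.00252), a call kept in each fit that left out 1 array, with -0.79 in E168d2neo/d2neo and -0.70 in R90Wneo/Wneo (adjusted p = 0.0589 and 0.214).

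*Slc8a3*, 1 of 6 sodium/proton and sodium/calcium exchangers, encodes the sodium/calcium exchanger NCX3. Its log2 signals were 6.66, 6.48 and 6.37 in WT, 5.90, 5.14 and 5.51 in E168d2neo/d2neo, 5.82, 5.58 and 5.47 in R90Wneo/Wneo and 4.65, 5.79 and 5.28 in Crx-/-, and all mutant arrays were below WT. The difference of -1.27 in Crx-/- passed (SE 0.28, adjusted p = 0.0194), and those of -0.99 and -0.88 did not (adjusted p = 0.0589 and 0.211). It lost its call without WT replicate 1 or 2 or Crx-/- replicate 1 or 3 (adjusted p up to 0.0624), with no filter on dim probes (0.0577) and with only the genotypes compared (0.0742). This probe was not among those detected on all 12 arrays, and its signal on Crx-/- replicate 1 lay below the lowest detected signal there (4.71). A second probe of *Slc8a3*, undetected on every WT array, differed by 0.20 in Crx-/- (adjusted p = 0.849). Its relative *Slc8a1*, the exchanger NCX1, had log2 signals of 8.42, 8.68 and 8.56 in WT and 9.54, 9.21 and 9.46 in E168d2neo/d2neo. All E168d2neo/d2neo arrays lay above WT, and the rise of 0.85 passed the adjusted p below 2-fold (SE 0.15, adjusted p = 0.00664); with the arrays scaled to 1 mean it was 1.01 and was called. In R90Wneo/Wneo and Crx-/- it was 0.36 and 0.53 higher (adjusted p = 0.388 and 0.0605).

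The 11 vitamin, choline, heme, phosphate and urea carriers gave 2 calls in Crx-/-, both of the SLC46 family. *Slc46a3* encodes a carrier of the lysosomal membrane. The 3 WT arrays read 10.68, 10.34 and 10.44 for *Slc46a3* on the log2 scale, those of E168d2neo/d2neo 10.32, 9.28 and 9.40, those of R90Wneo/Wneo 9.89, 9.75 and 9.89 and those of Crx-/- 9.20, 9.34 and 9.63. All mutant arrays were below WT, E168d2neo/d2neo replicate 1 by the least. The difference of -1.09 in Crx-/- passed (adjusted p = 0.0239), while -0.81 and -0.64 did not (adjusted p = 0.0812 and 0.341). Without any 1 WT array or Crx-/- replicate 1 or 2 this call was lost (adjusted p up to 0.0915), as it was with no filter on dim probes (0.0619).

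*Slc44a1*, a choline carrier named after its values were seen, was -0.55 in Crx-/-, which passed the adjusted p below 2-fold (0.0457). In E168d2neo/d2neo its probes disagreed: the brightest gave -0.40 (adjusted p = 0.139) and the second brightest -1.03 (adjusted p = 0.00669), a call.

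*Slc46a1* encodes the proton-coupled folate transporter. Log2 signals of *Slc46a1* were 5.80, 5.06 and 5.03 on the WT arrays, 5.45, 5.05 and 5.47 on those of E168d2neo/d2neo, 4, 4.71 and 5.17 on those of R90Wneo/Wneo and 4.03, 4 and 4.15 on those of Crx-/-. It was detected on all WT and E168d2neo/d2neo arrays, which overlapped, and on no Crx-/- array. The fall in Crx-/- was thus at least 1.47-fold. The call rests on the fitted difference of -1.23, taken against values at or near the floor (adjusted p = 0.029). The direct difference between E168d2neo/d2neo and Crx-/- did not pass (adjusted p = 0.0911). It lost its call without WT replicate 1 or 2 or any 1 Crx-/- array (adjusted p up to 0.0918), with the arrays scaled to 1 mean (0.0683), with a floor of 32 (0.469) and with no filter on dim probes (0.0827).

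*Slc5a5* belongs to the 10 sugar and SLC5 family carriers and encodes the sodium/iodide symporter of the thyroid. In WT the log2 signal of *Slc5a5* was 7.25, 7.17 and 6.92 on replicates 1, 2 and 3, in E168d2neo/d2neo 6.18, 5.55 and 6.18, in R90Wneo/Wneo 5.88, 6.49 and 6.91 and in Crx-/- 4.91, 5.72 and 5.80. Every mutant array lay below WT, R90Wneo/Wneo replicate 3 by 0.01 at most. *Slc5a5* was 3.11-fold lower in Crx-/- (-1.64, SE 0.31, adjusted p = 0.00922), and this call was kept in each fit that left out 1 array. In E168d2neo/d2neo the difference of -1.15 fell just short (adjusted p = 0.0502; 0.0385 to 0.0474 without E168d2neo/d2neo, R90Wneo/Wneo or Crx-/- replicate 1, 0.044 by SAM and 0.0189 among probes detected on all 12 arrays), and in R90Wneo/Wneo it was -0.69 (adjusted p = 0.423).

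*Slc29a2*, 1 of 15 nucleoside, nucleotide sugar and acetyl-CoA carriers, encodes the equilibrative nucleoside transporter ENT2. For *Slc29a2*, the log2 signals were 5.69, 6.07 and 6.17 in WT, 5.27, 4.42 and 5.14 in E168d2neo/d2neo, 4.87, 5.25 and 5.77 in R90Wneo/Wneo and 4.33, 4.55 and 5.38 in Crx-/-. The Crx-/- and E168d2neo/d2neo arrays lay below WT and R90Wneo/Wneo replicate 3 overlapped it. A difference of -1.22 passed in Crx-/- (SE 0.33, adjusted p = 0.0486), and -1.04 and -0.68 in E168d2neo/d2neo and R90Wneo/Wneo did not (adjusted p = 0.093 and 0.473). The call was lost in 9 of the 12 fits that left out 1 array, all but those without E168d2neo/d2neo replicate 1 or 2 or Crx-/- replicate 3 (adjusted p up to 0.175). It was lost too with the arrays scaled to 1 mean (0.0708), with no filter on dim probes (0.135), with only the genotypes compared (0.0865) and, under 2-fold, with a floor of 32 (-0.85). On Crx-/- replicates 1 and 2 the signal lay below the lowest detected signal of those arrays (4.71 and 4.82). The same held on E168d2neo/d2neo replicate 2 (4.58), and *Slc29a2* was not among the probes detected on all 12 arrays.

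Among the 12 organic cation, peptide, bile acid and drug carriers 1 was called. *Slc10a4l* is annotated in RefSeq as a transcribed pseudogene on chromosome 5, so that its signal is that of an RNA and not of a transporter. Its log2 signals were 7.17, 7.58 and 7.18 in WT, 5.39, 5.53 and 5.29 in E168d2neo/d2neo, 6.35, 6.73 and 6.45 in R90Wneo/Wneo and 6.04, 6.62 and 6.51 in Crx-/-. All E168d2neo/d2neo arrays lay below those of the other mutants, which in turn lay below WT. *Slc10a4l* was 3.75-fold lower in E168d2neo/d2neo (-1.91, SE 0.20, adjusted p = 0.000179), a call kept in each fit that left out 1 array. It was -0.93 in Crx-/-, under 2-fold (adjusted p = 0.0162; called without WT replicate 1 or Crx-/- replicate 2), and -0.80 in R90Wneo/Wneo (adjusted p = 0.0828). The related gene *Slc10a4*, a vesicle-associated member of the bile acid carrier family, was undetected on all WT arrays and detected on all Crx-/- arrays. There it was at least 1.4-fold higher than WT, and the fitted difference of 1.24 did not pass (adjusted p = 0.0574). It passed by SAM (adjusted p = 0.0236), with only the genotypes compared (0.0379) and without E168d2neo/d2neo replicate 1 (0.0232) or R90Wneo/Wneo replicate 1 (0.0437). *Slc10a4* met the detection rule through Crx-/- alone, the group in which it is high. These passes therefore give no independent support for a rise. *Slc15a2*, the peptide carrier PEPT2, differed by 0.27, 0.10 and 0.35 in E168d2neo/d2neo, R90Wneo/Wneo and Crx-/- (lowest adjusted p = 0.251).

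In the remaining groups no gene was called. Of the 11 neurotransmitter, vesicular and organic anion carriers, *Slc6a6*, the taurine transporter, had log2 signals of 13.25, 13.27 and 13.20 in WT and 12.50, 12.44 and 12.92 in Crx-/-. The Crx-/- arrays were lower, with a difference of -0.62 (95% interval -1.11 to -0.13, adjusted p = 0.129). *Slc6a8*, the creatine transporter, was 0.74, 0.44 and 0.71 above WT in E168d2neo/d2neo, R90Wneo/Wneo and Crx-/- without passing (adjusted p = 0.0748, 0.498 and 0.0823), and no mutant array overlapped WT. *Slc66a2*, a member of a family of lysosomal and Golgi carriers, differed by 0.61 in E168d2neo/d2neo (adjusted p = 0.136). The 4 genes that are no carriers were the scaffold genes *Slc9a3r1* and *Slc9a3r2*, *Slc4a1ap*, whose product binds a carrier, and *Slc7a6os*, transcribed opposite to a carrier gene. Their differences from WT lay between -0.56 and 0.13 (lowest adjusted p = 0.142).

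Medians of the groups of 6 or more genes lay between -0.41 and 0.14 on the log2 scale. The 21 amino acid carriers had medians of -0.29, -0.15 and -0.08 for E168d2neo/d2neo, R90Wneo/Wneo and Crx-/-, and the 11 vitamin, choline, heme, phosphate and urea carriers -0.31, -0.14 and -0.24. The 10 bicarbonate, anion and cation-chloride carriers had -0.26, -0.35 and -0.17, and the 7 monocarboxylate, dicarboxylate and fatty acid carriers -0.33, -0.41 and -0.11. In these groups the medians kept their sign with the arrays scaled to 1 mean. The 15 nucleoside, nucleotide sugar and acetyl-CoA carriers had medians above 0 under both scalings (0.11, 0.06 and 0.12 under quantile normalization). The 21 metal ion carriers had 0.08, -0.04 and 0.14, of which the value in R90Wneo/Wneo became 0.04 under the other scaling. The 11 neurotransmitter, vesicular and organic anion carriers had -0.21, -0.06 and -0.25, and that of R90Wneo/Wneo became 0.08. Among the 12 organic cation, peptide, bile acid and drug carriers and the 10 sugar and SLC5 family carriers the medians in E168d2neo/d2neo (-0.12 and -0.02) and R90Wneo/Wneo (-0.05 and -0.01) turned positive, while those in Crx-/- were -0.18 and -0.16 and stayed below 0. The 6 sodium/proton and sodium/calcium exchangers had -0.11, 0.04 and -0.15, of which the value in E168d2neo/d2neo turned to 0.0067. With the arrays scaled to 1 mean, the medians of all tested probes were themselves 0.10, 0.06 and 0.06 for E168d2neo/d2neo, R90Wneo/Wneo and Crx-/-. A turn of sign is therefore not by itself a change relative to all probes. Those probes include dim ones that fail the detection rule of the carriers.

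For 10 of the 16 called genes a promoter was matched in RefSeq (GRCm38.p6), and the 250 bases before the start were searched on both strands for TAATCC, the letters that CRX binds. The promoters of the Crx-/- calls that were kept in every fit are shown together with the only called gene whose window holds the letters, written 5′ to 3′ on the gene's strand with the match in capitals.
*Slc46a3*, chr5:147894816-147895065, minus strand: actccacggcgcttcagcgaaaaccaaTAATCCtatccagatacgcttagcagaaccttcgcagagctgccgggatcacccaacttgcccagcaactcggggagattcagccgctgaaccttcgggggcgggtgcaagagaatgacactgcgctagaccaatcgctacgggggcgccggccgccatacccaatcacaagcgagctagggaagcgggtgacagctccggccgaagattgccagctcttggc
*Slc26a6*, chr9:108853793-108854042, plus strand: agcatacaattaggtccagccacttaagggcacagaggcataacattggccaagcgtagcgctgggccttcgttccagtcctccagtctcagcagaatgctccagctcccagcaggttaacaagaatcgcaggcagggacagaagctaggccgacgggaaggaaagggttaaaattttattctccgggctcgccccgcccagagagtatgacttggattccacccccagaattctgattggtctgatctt
*Slc25a10*, chr11:120491587-120491836, plus strand: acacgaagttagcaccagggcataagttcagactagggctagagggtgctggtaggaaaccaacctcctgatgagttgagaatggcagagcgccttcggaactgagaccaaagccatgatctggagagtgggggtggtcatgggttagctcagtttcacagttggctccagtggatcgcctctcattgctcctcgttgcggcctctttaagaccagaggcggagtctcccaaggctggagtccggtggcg
*Slc5a5*, chr8:70892758-70893007, minus strand: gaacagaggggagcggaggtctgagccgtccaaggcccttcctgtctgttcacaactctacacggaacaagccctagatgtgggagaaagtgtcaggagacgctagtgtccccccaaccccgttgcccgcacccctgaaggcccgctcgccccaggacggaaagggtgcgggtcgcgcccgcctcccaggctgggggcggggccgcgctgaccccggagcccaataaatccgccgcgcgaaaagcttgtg
The match in *Slc46a3* begins at position -223 from the start, and the windows of *Slc26a6*, *Slc25a10* and *Slc5a5* hold none. Over the carriers, 124 of 160 matched 170 promoters, of which 8 (4.71%) hold the letters, against 2054 of 32851 (6.25%) over all RefSeq promoters in the table. A match is a description of letters in this window, and binding was not measured here. *Slc10a4l*, *Slc16a6*, *Slc25a35*, *Slc25a37*, *Slc38a3* and *Slc39a4* were not matched.

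The genes called lower in Crx-/- and E168d2neo/d2neo overlapped in part. Of 13 and 6 genes, 4 were called in both (*Slc25a10*, *Slc25a35*, *Slc31a2* and *Slc38a3*), 9 in Crx-/- alone and 2 in E168d2neo/d2neo alone (*Slc16a6* and *Slc10a4l*). These comparisons share their WT arrays, so the values are given side by side. The 13 genes called lower in Crx-/- differed there by -1.78 to -1.09, in E168d2neo/d2neo by -1.85 to 0.03 (median -0.99) and in R90Wneo/Wneo by -1.31 to 0.01 (median -0.69). In R90Wneo/Wneo the adjusted p of the 13 ran from 0.096 to 1.

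**Figure D3:**
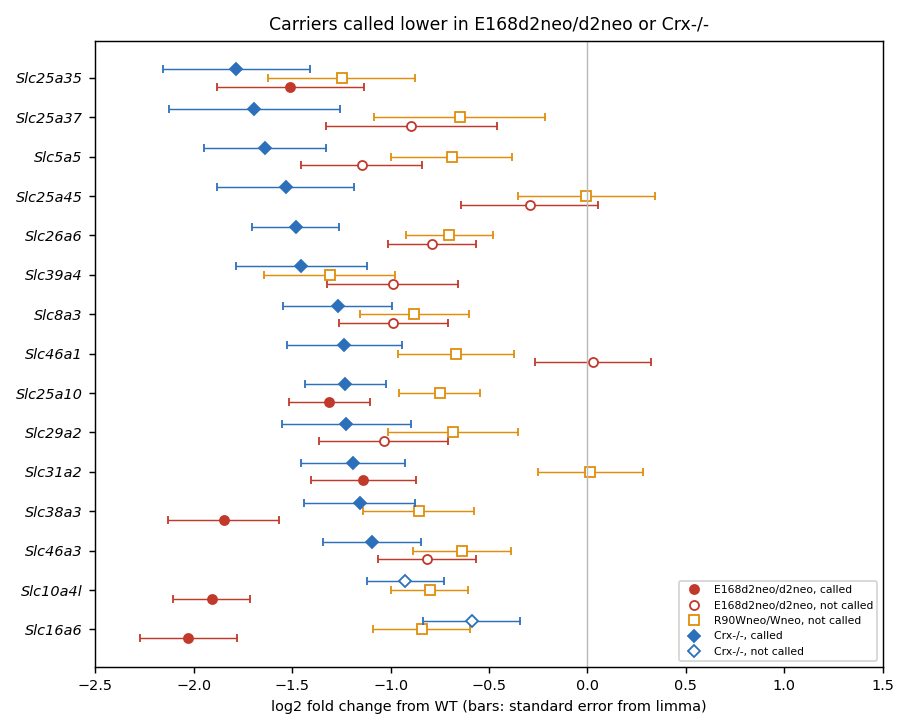
Log2 fold change from WT (x axis, bars are the standard error from limma) of the 15 carriers called lower in E168d2neo/d2neo or Crx-/- (y axis), with circles for E168d2neo/d2neo, squares for R90Wneo/Wneo and diamonds for Crx-/-. Filled symbols were called. For *Slc16a6*, *Slc10a4l* and *Slc38a3* the circle lies left of the diamond, and for *Slc25a45* and *Slc46a1* far to its right.

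Direct comparisons between the mutants addressed whether the alleles differ. E168d2neo/d2neo against Crx-/- gave 1 gene lower and 0 higher (0.317% and 0.214% of all tested probes), R90Wneo/Wneo against Crx-/- gave 0 and 0 (0.119% and 0.259%), and E168d2neo/d2neo against R90Wneo/Wneo gave 1 and 0 (0.403% and 0.119%). *Slc16a6* was lower in E168d2neo/d2neo than in Crx-/- (-1.44, SE 0.25, adjusted p = 0.0252), and its difference from R90Wneo/Wneo was -1.18 (adjusted p = 0.0688). The second probe gave -1.5 and -1.78 (adjusted p = 0.0751 and 0.0387), so that each probe passed in 1 of the 2 comparisons. *Slc10a4l* was lower in E168d2neo/d2neo than in R90Wneo/Wneo (-1.11, SE 0.20, adjusted p = 0.0279), and its difference from Crx-/- was -0.98 (adjusted p = 0.0513). The *Slc16a6* call was lost without WT replicate 3, E168d2neo/d2neo replicate 2 or 3 or Crx-/- replicate 2 or 3 (adjusted p up to 0.108), and the *Slc10a4l* call without WT replicate 3, E168d2neo/d2neo replicate 2 or 3 or any 1 R90Wneo/Wneo array (up to 0.134). Without R90Wneo/Wneo replicate 1 the difference of *Slc16a6* from that genotype was called (-1.42, adjusted p = 0.033), and without Crx-/- replicate 1 that of *Slc10a4l* from Crx-/- (-1.17, adjusted p = 0.035). Without E168d2neo/d2neo replicate 1, *Slc38a3* was lower in E168d2neo/d2neo than in Crx-/- (-1.03, adjusted p = 0.0459) and than in R90Wneo/Wneo (-1.33, adjusted p = 0.0169). The same fit called *Slc9a8*, named after its values were seen, lower in E168d2neo/d2neo than in Crx-/- (-1.12, adjusted p = 0.0104). Both direct calls were lost by SAM (adjusted p = 0.101 for *Slc16a6* and 0.0915 for *Slc10a4l*), with only the genotypes compared (0.137 and 0.126) and with no filter on dim probes (0.0694 and 0.0623).

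SAM also called 0 carriers in R90Wneo/Wneo, but of all tested probes it called only 19 lower and 9 higher there. Its 0 therefore says little about the carriers. For R90Wneo/Wneo the count of 0 by limma stands beside an unadjusted p under 0.05 in 20 carriers lower and 6 higher (5.68% and 5.74% of all tested probes). At that p E168d2neo/d2neo had 31 lower and 19 higher (10.3% and 11.3%) and Crx-/- 35 and 15 (10.4% and 11.2%). The R90Wneo/Wneo arrays lay wholly below WT for 38 carriers and wholly above for 12, where 8.50% and 9.52% of all tested probes did so. In E168d2neo/d2neo these numbers were 39 and 21 (11.0% and 11.2%), and in Crx-/- 49 and 22 (13.9% and 15.8%). The shares and medians set beside the carriers in this paragraph are of all 24311 tested probes, which include dim probes that fail the detection rule of the carriers. Values among the 16529 probes that meet it are not given for these measures. The carriers are therefore not set against a like background here. No gene was called in all 3 mutants (0.551% of all tested probes were called lower in all 3 and 0.230% higher), while with a floor of 32 *Slc25a35* was called lower in all 3. Over the 160 carriers the median log2 difference was -0.14, -0.06 and -0.12 for E168d2neo/d2neo, R90Wneo/Wneo and Crx-/-, where that of all tested probes was 0.01 in each. With the arrays scaled to 1 mean in place of quantile normalization the carrier medians became -0.0019, 0.04 and -0.07 and those of all tested probes 0.10, 0.06 and 0.06, so that the sign in R90Wneo/Wneo turned. Most carriers lay near WT: 120, 132 and 121 of the 160 were within 1.5-fold of it in E168d2neo/d2neo, R90Wneo/Wneo and Crx-/- (75%, 82.5% and 75.6%), against 79.4%, 86.7% and 78.9% of all tested probes.

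**Figure D4:**
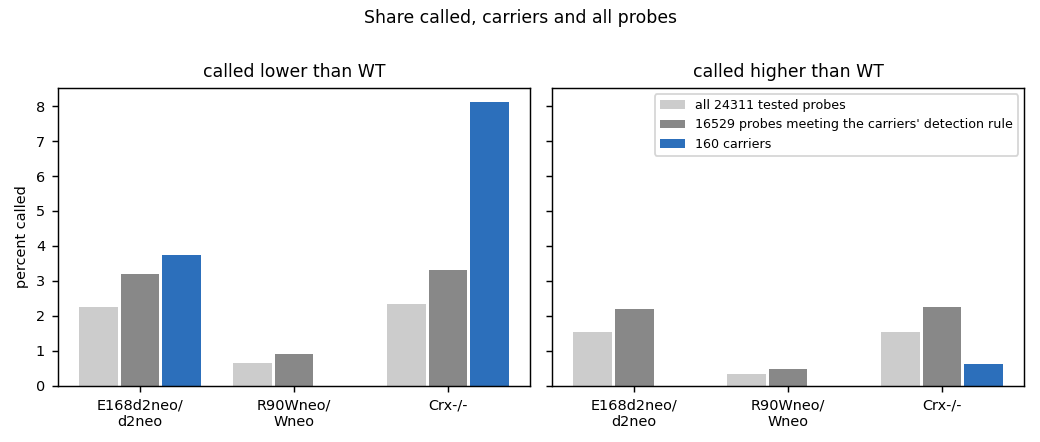
Percent of features called (y axis) lower (left) or higher (right) than WT in each mutant (x axis), for all 24311 tested probes (light grey), the 16529 probes that meet the carriers' detection rule (dark grey) and the 160 carriers (blue). In Crx-/- 8.12% of the carriers were called lower, against 2.34% and 3.32% of the probes.

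Genes that work beside the carriers were read for comparison. None of 14 tested sodium pump subunits, carbonic anhydrases, carrier chaperones and other partners was called in any mutant. Of 17 tested carriers whose symbols fall outside the form, 1 was called: *Slco4a1*, an organic anion transporter that carries thyroid hormone, was -1.31 in E168d2neo/d2neo (SE 0.20, adjusted p = 0.00281) and -1.26 in Crx-/- (SE 0.20, adjusted p = 0.00391). The difference was -0.73 in R90Wneo/Wneo (adjusted p = 0.141).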

How the data were processed

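RNA of 12 retina pools was hybridised to MouseWG-6 v2.0 bead arrays. The authors deposited, per probe and array, a background-subtracted intensity without normalization between arrays and a detection p-value. A deposited processed value table holds the same intensity times 1 factor per array, beside identifiers that did not belong to the values, and served only as the scaling alternative. Intensities were quantile-normalized over the arrays, set to at least 16 and taken to log2 (limma 3.58.1, R 4.3.3). The 24311 probes detected on at least 1 array entered 1 linear model with genotype as its only factor, where the study's methods name SAM, used here as an alternative. The script was tested on simulated data. Slides are not given in the sources used here, and precision is limited by how few arrays there are, so that p-values measure the spread between pools. An undetected genotype gave a bound against the lowest detected signal of each of its arrays. Named were up to 10 called genes per direction and mutant, up to 5 between mutants, called genes or the brightest of each role group, genes of the study's own lists, genes that are no carriers and called partners. Members and lists were chosen with earlier results of these data known.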

Additional observations from a re-analysis of the deposited data

How the results depend on the processing

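The counts below are of carriers, and apart from SAM the number of all probes called under each setting is not given. A change in a count can therefore not be told from a change over the whole array. Of 22 calls of carriers over the 6 comparisons, 7 were kept in every fit that left out 1 array. These fits gave, lower and higher, 4 to 9 and 0 to 1 genes in E168d2neo/d2neo, 0 to 1 and 0 to 0 in R90Wneo/Wneo, and 3 to 14 and 0 to 2 in Crx-/-. Between mutants they gave 0 to 3 lower in E168d2neo/d2neo than in Crx-/-, 0 to 1 higher in R90Wneo/Wneo than in Crx-/- and 0 to 2 lower in E168d2neo/d2neo than in R90Wneo/Wneo. Arrays scaled to 1 mean gave 1 gene higher in E168d2neo/d2neo (4 lower), 1 in R90Wneo/Wneo and 1 in R90Wneo/Wneo against Crx-/-. A floor of 32 gave 1 lower in R90Wneo/Wneo, 8 lower and 0 higher in Crx-/- and 1 lower in all 3 mutants. Probes detected on all 12 arrays gave 1 lower in R90Wneo/Wneo, 6 lower and 0 higher in Crx-/- and 2 lower between E168d2neo/d2neo and R90Wneo/Wneo, with fewer genes tested. No filter on dim probes gave 3 lower in Crx-/-. Only the genotypes compared gave 2 lower in E168d2neo/d2neo and 8 in Crx-/-, with fewer arrays. Both of these and SAM gave 0 lower in E168d2neo/d2neo against each other mutant, and SAM 2 higher in Crx-/-. Of all tested probes, SAM called 18 lower in E168d2neo/d2neo against Crx-/-, 53 lower against R90Wneo/Wneo and 500 higher in Crx-/- against WT. The second brightest probe gave 0 lower in E168d2neo/d2neo against Crx-/- and 2 against R90Wneo/Wneo. Chosen after seeing the data, leaving out both dim arrays gave 1 higher in E168d2neo/d2neo, 3 higher in Crx-/-, 3 lower and 2 lower in E168d2neo/d2neo against Crx-/- and R90Wneo/Wneo, and 2 higher in R90Wneo/Wneo against Crx-/-, and no fold threshold gave 2 higher in E168d2neo/d2neo and 3 in Crx-/-. Where no construction is named, the cause was not tested. Same-numbered arrays were not shown to be paired over the 4 genotypes (6 of 18 pairs correlated over 0.1, the 3 of WT and E168d2neo/d2neo among them at 0.101 to 0.313, and 7 of 12 arrays matched their own number best), and the replicate block gave 5 lower in E168d2neo/d2neo, 12 lower and 1 higher in Crx-/- and 0 in R90Wneo/Wneo. It ended the calls of *Slc25a35* in E168d2neo/d2neo and *Slc25a37* in Crx-/- and no other of the 22. No called direction reversed. Signals near background limit the dim carriers, since 8 of the 16 called genes were undetected on at least 1 array.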
